A study of Mus musculus with 8 samples.

Results

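The expression of 10 genes of the NRF2 antioxidant pathway was followed in tumor-associated macrophages (TAMs) after treatment with thiostrepton. The genes were taken by symbol, as Nfe2l2, Keap1, Slc7a11, Gclc, Gclm, Gsr, Txnrd1, Srxn1, Nqo1 and G6pdx among the 23413 gene symbols of the deposited count table. RNA was sequenced from TAMs of 8 mice, with 1 library per mouse. Male B6 mice, 8 to 10 weeks old, carried tumors of B16F10, a mouse melanoma cell line, and were dosed on days 6 and 12 after engraftment. Vehicle (DMSO) was injected into 2 mice. Thiostrepton, a thiopeptide antibiotic, was injected intraperitoneally (I.P.) into 4 mice and subcutaneously beside the tumor (S.C.) into 2 mice, the latter at 20 mg/kg. The I.P. dose of these 4 mice and the route of the DMSO injections are not given in the sources used here, and the labels of the S.C. mice name the injection site but not the agent, which the design text gives. On day 18, cells that were CD45+, F4/80+, CD11b+ and Gr-1- were sorted from the tumors, so each library holds a sorted population of a tumor and not single cells.

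NRF2, the protein of Nfe2l2, is a transcription factor that KEAP1 holds in the cytoplasm and hands to a ubiquitin ligase for degradation. When oxidants or electrophiles modify the cysteines of KEAP1, NRF2 escapes, pairs with a small MAF protein and binds antioxidant response elements (AREs) near genes for glutathione synthesis, thioredoxin and NADPH. NRF2 protein is controlled mainly by its stability, so the mRNA of Nfe2l2 is not a readout of NRF2 activity, which is usually read from its target genes.

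The libraries held between 14127506 and 17577466 counts on genes, and 3 counts, taken as a floor that covers counting error only, were worth 0.169 to 0.218 CPM (counts scaled to the library total, adjusted by the TMM method). S.C. mice 1 and 2 lacked any count for 0.525% and 0.364% of the 9328 genes whose mean was 5 CPM or more, and the remaining mice for 0.0107% to 0.129%. The 8 macrophage markers, among them Ptprc (CD45), Adgre1 (F4/80, listed under its older symbol Emr1), Itgam (CD11b) and Csf1r, summed to between 18380 and 31230 CPM in every mouse. Most of this sum was Lyz2, with 13322 to 25057 CPM. In S.C. mice 1 and 2, Ptprc had 294 and 522 CPM, Adgre1 361 and 1020, Itgam 103 and 384, and Csf1r 353 and 1128. Melanoma markers (7 genes) summed to 597 and 667 CPM in the DMSO mice, 462 to 1672 in the I.P. mice, and 2987 and 701 in S.C. mice 1 and 2. Neutrophil markers (9 genes) summed to 125 and 135 CPM after DMSO, 84.3 to 160 CPM after I.P. and 230 and 401 CPM after S.C. dosing, although the sort excluded Gr-1+ cells. By the serial numbers in their labels, I.P. mouse 1 stood before the S.C. and DMSO mice and I.P. mice 2, 3 and 4 after them, so the treatment and this order cannot be told apart except for I.P. mouse 1. In bulk RNA, fewer cells of a type and less RNA per cell cannot be told apart.

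The promoters of the genes are shown first, because the pathway acts through a short element in them. RefSeq windows of GRCm38.p6, from 250 bases before to 50 after a transcription start, were at hand for 8 of the 10 genes, in 10 windows, as Txnrd1 has 3 starts. The ARE core, TGANNNNGC, was searched on both strands. It lay before the start in 7 of the 8 genes, in 8 of their 10 windows, against 35.2% of the 32851 windows of all genes. The stricter core TGACNNNGC, which is contained in the first motif, lay before the start in 1 window each of 4 genes, Nfe2l2, Gclm, Txnrd1 and G6pdx. It did so in 10.16% of the windows of all genes. For Nfe2l2 alone, the end of the window was found in no GENCODE transcript of the gene, so its start is less sure. A match of letters is a description and not a bound site. The stretches that hold these cores follow, read 5′ to 3′ along the gene with the cores in capitals.
Nfe2l2, chr2:75704880-75704913, minus strand: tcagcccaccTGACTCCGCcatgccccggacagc
Keap1, chr9:21239370-21239408, minus strand: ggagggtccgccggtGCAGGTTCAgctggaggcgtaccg
Gclm, chr3:122245408-122245446, plus strand: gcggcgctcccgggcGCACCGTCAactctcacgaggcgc
Txnrd1, start 2, chr10:82859099-82859137, plus strand: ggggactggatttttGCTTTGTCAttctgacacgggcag
Txnrd1, start 3, chr10:82860242-82860280, plus strand: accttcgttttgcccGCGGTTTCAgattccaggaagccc
G6pdx, chrX:74428914-74428952, minus strand: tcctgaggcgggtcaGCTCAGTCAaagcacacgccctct
Srxn1, chr2:152105351-152105502, plus strand: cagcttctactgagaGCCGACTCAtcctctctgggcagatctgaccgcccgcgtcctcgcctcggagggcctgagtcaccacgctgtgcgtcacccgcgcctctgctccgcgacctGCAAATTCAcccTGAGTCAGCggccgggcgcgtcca
Slc7a11, chr3:50443635-50443725, minus strand: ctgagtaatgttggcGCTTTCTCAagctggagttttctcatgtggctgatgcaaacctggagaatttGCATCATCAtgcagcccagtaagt
Srxn1 carried 3 cores before its start, at -158, -57 and -45, more than any other of these windows. The window of Slc7a11 held 2 before the start, at -97 and -45, those of Nfe2l2, Keap1, Gclm and G6pdx and the second and the third of Txnrd1 held 1 each, and the windows of Nqo1 and of the first start of Txnrd1 held none in these 300 bases. Slc7a11 is also known as a target of ATF4, the factor of the amino acid response, and the ATF4 element TGATGNAA was therefore searched as well. It occurred only in the window of Slc7a11 among the 8 genes, at -66 and, in the other orientation, at -47, against 3.452% of all windows with a match before the start. The second match overlaps the ARE core at -45. The same stretch is shown again with the ATF4 elements in capitals.
Slc7a11, chr3:50443635-50443725, minus strand: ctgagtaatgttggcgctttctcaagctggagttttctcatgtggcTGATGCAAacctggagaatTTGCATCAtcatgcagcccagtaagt

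**Figure D1:**
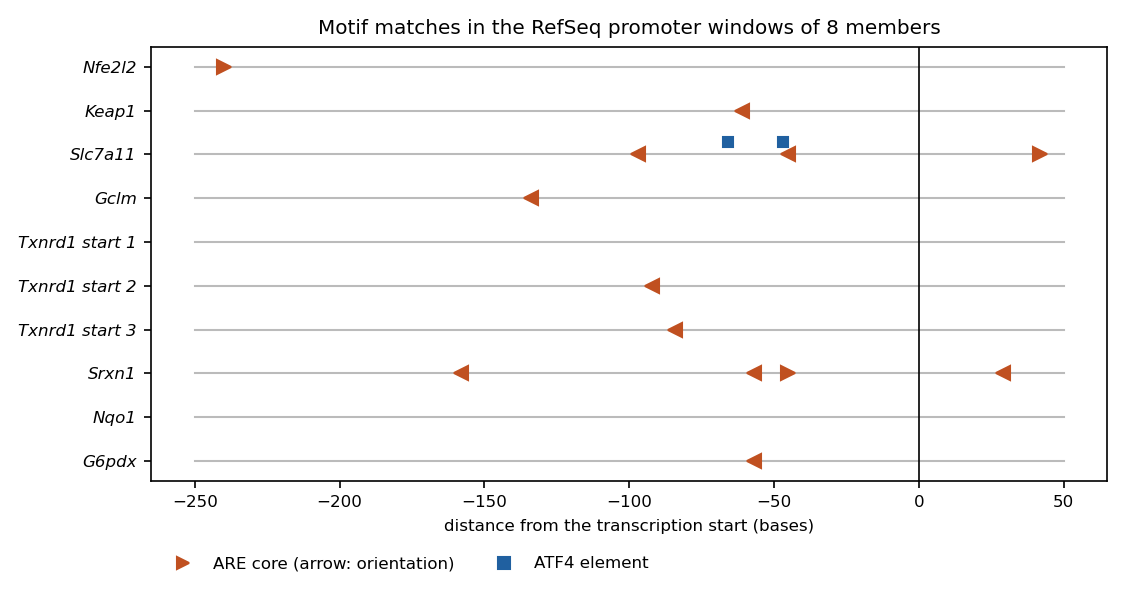
Motif matches in the 10 RefSeq promoter windows of 8 genes, with the distance from the transcription start in bases on the x axis and a line per window. Arrows are ARE cores in their orientation and squares are ATF4 elements, and Srxn1 holds 3 cores before its start while Slc7a11 alone holds ATF4 elements.

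All 10 genes passed the filter on low counts in every comparison. In DMSO mice they spanned a wide range of levels per kilobase of exon. G6pdx was highest at 64.0 ± 7.78 CPM per kilobase (SD, n = 2), followed by Nfe2l2 at 51.7 ± 0.895 and Srxn1 at 42.6 ± 6.08. Gsr (21.1 ± 3.0), Txnrd1 (16.4 ± 4.78), Keap1 (15.1 ± 0.114), Gclc (15.1 ± 1.31) and Gclm (11.7 ± 4.04) lay in a middle band in which neighbors differed by less than their spread. Nqo1, at 2.47 ± 0.899, and Slc7a11, at 0.605 ± 0.0774, were the lowest. The length of a gene was that of all its annotated exons together, 13922 bases for Slc7a11. Without division by length, the mean of Slc7a11 (8.43 CPM) stood above that of Nqo1 (3.84 CPM) in DMSO mice.

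The first comparison asked how the genes differed in TAMs of I.P. mice from those of DMSO mice. Slc7a11, Gclm, Gsr and Srxn1, which serve cystine uptake, glutathione synthesis, glutathione recycling and peroxiredoxin repair, were higher in all 4 I.P. mice than in either DMSO mouse, by 1.51-fold to 3.18-fold in the fitted means, while the I.P. and DMSO mice overlapped for Nfe2l2 and Keap1. None passed an adjusted p of 0.05 over the 12174 genes tested by edgeR's quasi-likelihood test, as 0% of all genes did, and none did by DESeq2 or by edgeR's likelihood ratio test. At an unadjusted P under 0.05 the 4 genes were higher and 0 were lower, against a background of 2.55% of all genes higher and 0.879% lower. The groups did not overlap for these 4 genes with I.P. higher and for 0 with I.P. lower, beside 7.32% and 6.83% of all genes tested. The number of genes at an unadjusted P under 0.05 was 0 without DMSO mouse 1, 1 without DMSO mouse 2 and 2 without I.P. mouse 2.

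The second comparison asked the same of S.C. mice. Nfe2l2 itself was 1.87-fold and Slc7a11 4.15-fold the DMSO level, and Gclm and Srxn1 also lay above both DMSO mice, while Keap1 and Nqo1 lay below them. By edgeR's quasi-likelihood test 0 of the 10 genes passed an adjusted p of 0.05 over the 11680 genes tested, as 0% of all genes did. DESeq2 and the likelihood ratio test each passed 1 of the 10, Slc7a11, beside 107 and 179 of all genes tested. At an unadjusted P under 0.05, 2 genes were higher, Nfe2l2 and Slc7a11, and 0 were lower, against 2.5% of all genes higher and 2.91% lower. Groups that did not overlap were found for 4 genes with S.C. higher and 2 with S.C. lower, but with 2 mice against 2 so were 17.1% and 17.2% of all genes tested. The number at an unadjusted P under 0.05 was 0 without DMSO mouse 1, 1 without DMSO mouse 2 and 5 without S.C. mouse 1. Leaving out an S.C. mouse gives a group of 1 whose spread is taken from the DMSO mice, and 30.4% of all genes then had such a P without S.C. mouse 1 and 34% without S.C. mouse 2. Both comparisons use the same 2 DMSO mice.

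**Figure D2:**
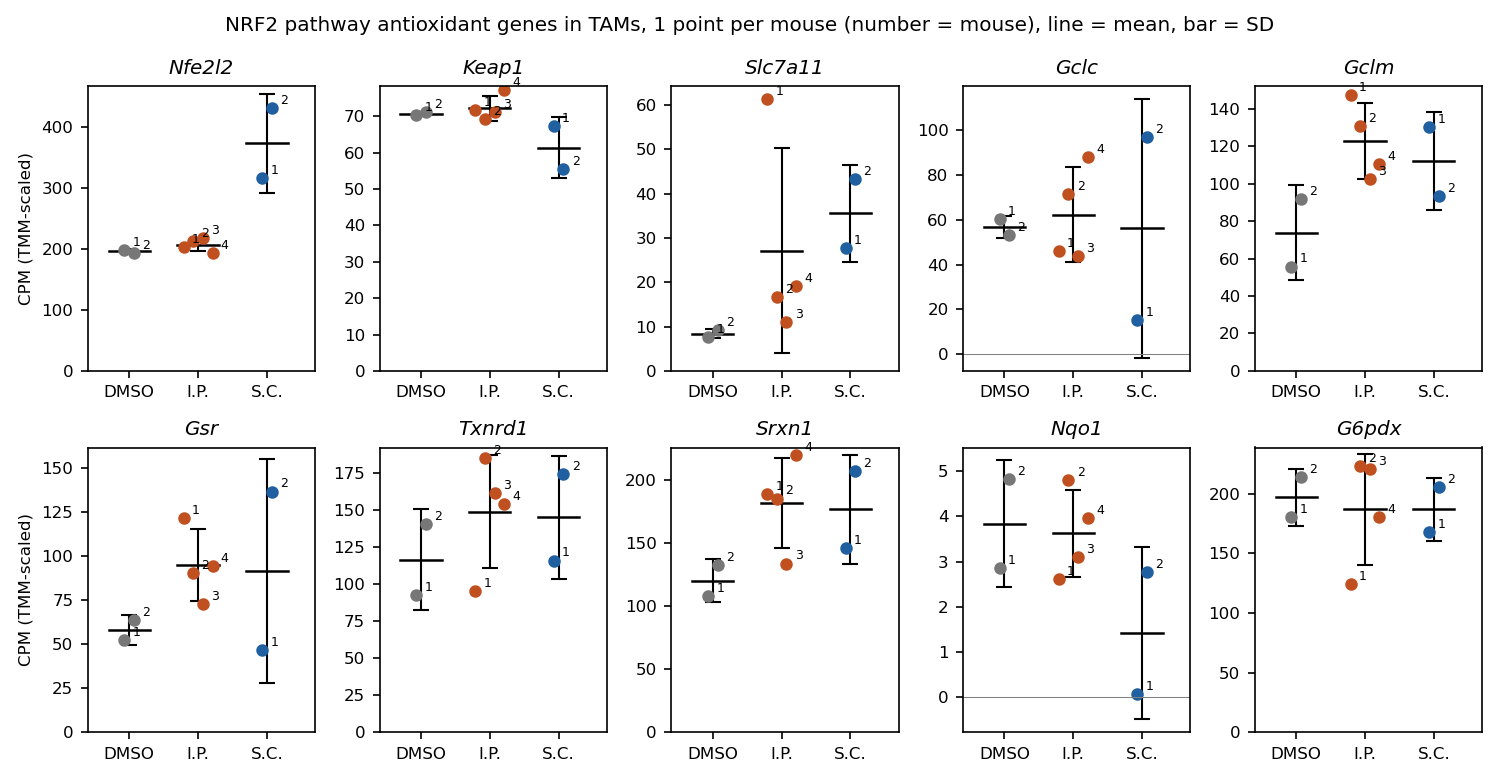
Level of each of the 10 genes in CPM (y axis, a scale of its own per gene) in DMSO, I.P. and S.C. mice (x axis), with a point per mouse labeled by its number, the mean as a line and the SD as a bar (2, 4 and 2 mice). Nfe2l2 is high only in the S.C. mice, Slc7a11 is above both DMSO mice in all treated mice, and Gclc and Gsr differ widely between S.C. mice 1 and 2.

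Among the regulators, Nfe2l2 (chr2:75675513-75704641, minus strand), the gene of NRF2, stood at 198.6 and 193.8 CPM in DMSO mice 1 and 2. The I.P. mice had 203, 213, 218 and 194 CPM, and the S.C. mice 316 and 431 CPM. DMSO and I.P. mice overlapped in a narrow band and both S.C. mice lay well above every other mouse. The log2 fold change was 0.073 ± 0.20 (SE) for I.P. (adjusted p = 0.987 by edgeR), 0.90 ± 0.31 for S.C. (adjusted p = 0.830 by edgeR), and 0.85 ± 0.23 for S.C. over I.P. (adjusted p = 0.346 by edgeR). The S.C. value had an unadjusted P under 0.05, but not with library size as the sole scaling (log2 fold change 0.75) or with a replicate block (log2 fold change 0.89). Nor did it without either DMSO mouse or without S.C. mouse 2 (log2 fold change 0.63), fits that leave a group of 1. The summed neutrophil markers were also highest in S.C. mouse 2 (401 CPM) and next in S.C. mouse 1 (230 CPM), although single markers differed in order, as Cxcr2 had 171 CPM in S.C. mouse 1 and 65.3 CPM in S.C. mouse 2, under the 96.7 CPM of DMSO mouse 2. Their part in the Nfe2l2 level was not tested. The 9 inflammatory genes, Il1b among them, summed to 1118 and 1797 CPM in the S.C. mice, 1384 in I.P. mouse 1 and 126 to 275 in the other mice, and I.P. mouse 1 had 203 CPM of Nfe2l2. Tnf of this list had 41.1 and 25.4 CPM after DMSO, 221, 26.3, 54.0 and 96.1 CPM in I.P. mice 1 to 4 and 125 and 117 CPM in S.C. mice 1 and 2. How the inflammatory genes relate to the Nfe2l2 level was not tested.

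Keap1 (chr9:21229730-21239361, minus strand), whose protein is the sensor and inhibitor of NRF2, had 70.3 and 71.1 CPM after DMSO and 71.7, 69.1, 71.0 and 77.1 after I.P. dosing. It had 67.3 and 55.4 CPM in S.C. mice 1 and 2, a little below all other mice. On the log2 scale Keap1 differed from DMSO by 0.026 ± 0.20 for I.P. and by -0.23 ± 0.31 for S.C., with adjusted p values of 0.993 and 1 by edgeR. The I.P. value was -0.042 when only the library size was used, so it has no stable direction.

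Slc7a11 (chr3:49892526-50443614, minus strand) encodes xCT, the transporter chain that exchanges glutamate for cystine and so brings in the cysteine of glutathione. It had 7.67 and 9.19 CPM in the DMSO mice, from 113 and 160 counts. It had 61.5, 16.7, 11.1 and 19.2 CPM in I.P. mice 1 to 4, and 27.8 and 43.3 CPM in S.C. mice 1 and 2. All 6 treated mice lay above both DMSO mice, and I.P. mouse 1 was far above the other I.P. mice. For I.P. the log2 fold change was 1.67 ± 0.67 (adjusted p = 0.980 by edgeR), and 0.89 without I.P. mouse 1, with an unadjusted P under 0.05 either way. For S.C. it was 2.05 ± 0.47 (adjusted p = 0.747 by edgeR), with the smallest unadjusted P of the 10 genes in that comparison. The adjusted p for S.C. was 0.0381 by the likelihood ratio test of edgeR and 0.0292 by DESeq2, so it turned on the test used. With a mouse left out a group of 1 remains. The log2 fold change then ranged from 1.66 without S.C. mouse 2 to 2.33 without S.C. mouse 1. S.C. and I.P. mice differed by 0.39 ± 0.65 (adjusted p = 0.924 by edgeR), and by 1.19 without I.P. mouse 1 (adjusted p = 0.384 by edgeR, in a range of 0.384 to 1 over the alternatives). Slc7a11 was the only one of the 10 genes that met the study's criterion for a DEG, an unadjusted P under 0.05 with at least a 2-fold change, which 1.53% of all genes met upward for I.P. and 2.29% for S.C.

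Melanoma cells can express Slc7a11 too. The 7 melanoma markers summed to 525, 977, 462 and 1672 CPM in I.P. mice 1 to 4, 2987 and 701 CPM in S.C. mice 1 and 2, and 597 and 667 CPM in DMSO mice 1 and 2. I.P. mice 2, 3 and 4 had the same order in this sum and in Slc7a11, as did the DMSO mice, while I.P. mouse 1 and the S.C. mice did not follow it. Within the list, I.P. mouse 1 had 37.7 CPM of Tyrp1, below both DMSO mice, and 161 CPM of Tyr, above both. The part of melanoma RNA in the Slc7a11 level was not tested. Slc3a2, which encodes the heavy chain that carries xCT to the membrane, had 542 and 455 CPM after DMSO, 657 to 852 CPM after I.P. and 624 and 734 CPM after S.C. dosing. Its treated mice also lay above both DMSO mice, with a log2 fold change of 0.56 ± 0.23 for I.P. (adjusted p = 0.980 by edgeR, unadjusted P under 0.05) and 0.42 ± 0.30 for S.C. (adjusted p = 1 by edgeR).

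Glutathione is made by glutamate-cysteine ligase, whose catalytic subunit is encoded by Gclc (chr9:77754535-77794485, plus strand) and whose modifier subunit, which makes the enzyme more efficient, is encoded by Gclm (chr3:122245557-122270732, plus strand). Gclm had 55.8 and 91.7 CPM after DMSO and 147, 131, 103 and 110 CPM after I.P. dosing. It had 130 and 93.5 CPM in the S.C. mice. Every treated mouse lay above both DMSO mice, but DMSO mouse 2 was close to S.C. mouse 2. The log2 fold change of Gclm was 0.73 ± 0.28 for I.P. (adjusted p = 0.980 by edgeR) and 0.58 ± 0.39 for S.C. (adjusted p = 1 by edgeR). The I.P. value was 0.42 without DMSO mouse 1 and 1.14 without DMSO mouse 2.

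Gclc had 60.2 and 53.2 CPM after DMSO and 46.2, 71.5, 43.9 and 88.0 after I.P. dosing. In S.C. mice 1 and 2 it had 15.3 and 97.1 CPM, from 227 and 1333 counts. The I.P. mice straddled the DMSO mice, and the S.C. mice held both the lowest and the highest level of the series. Its log2 fold change was 0.13 ± 0.33 for I.P. (adjusted p = 0.986 by edgeR) and -0.033 ± 0.81 for S.C. (adjusted p = 1 by edgeR), the latter being -1.95 without S.C. mouse 2 and 0.75 without S.C. mouse 1. The ratio of the 2 subunits varied between mice. Gclm over Gclc, as a ratio of CPM, was 0.927 and 1.72 after DMSO and 3.19, 1.83, 2.33 and 1.25 after I.P. dosing, while S.C. mice 1 and 2 had 8.54 and 0.962. S.C. mouse 1, with the ratio of 8.54, was the mouse with the most melanoma marker RNA and with the most genes at no count, and their part in the ratio was not tested.

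Gsr (chr8:33652523-33698163, plus strand) encodes glutathione reductase, which returns oxidized glutathione to its reduced form with NADPH. It had 52.3 and 63.9 CPM after DMSO and 122, 90.2, 72.6 and 94.4 after I.P. dosing, while S.C. mice 1 and 2 had 46.6 and 137. All I.P. mice lay above the DMSO mice, and S.C. mouse 1 lay below them while S.C. mouse 2 had the highest level of all. Fitted to all 4 I.P. mice, Gsr had a log2 fold change of 0.70 ± 0.26 (adjusted p = 0.980 by edgeR) and the smallest unadjusted P of the 10 genes. For S.C. it was 0.63 ± 0.55 (adjusted p = 1 by edgeR), or -0.38 without S.C. mouse 2 and 1.21 without S.C. mouse 1.

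Srxn1 (chr2:152105516-152111376, plus strand) encodes sulfiredoxin, which repairs overoxidized peroxiredoxins. It had 108 and 132 CPM after DMSO and 189, 185, 134 and 219.7 after I.P. dosing, while S.C. mice 1 and 2 had 146 and 207. Its treated mice lay above both DMSO mice, I.P. mouse 3 by a narrow margin. Srxn1 had a log2 fold change of 0.59 ± 0.26 for I.P. (adjusted p = 0.980 by edgeR) and 0.53 ± 0.34 for S.C. (adjusted p = 1 by edgeR). The unadjusted P of the I.P. value was just under 0.05, and it was above 0.05 with no filter on low counts, with library size only, with all 3 groups in 1 fit, with a replicate block and by the likelihood ratio test.

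Txnrd1 (chr10:82833951-82897712, plus strand) encodes cytosolic thioredoxin reductase, which keeps thioredoxin reduced. It had 92.4 and 140.3 CPM after DMSO and 95.2, 185, 161 and 154 after I.P. dosing, while S.C. mice 1 and 2 had 116 and 174. The groups overlapped in each comparison. Txnrd1 had a log2 fold change of 0.35 ± 0.32 for I.P. (adjusted p = 0.980 by edgeR) and 0.29 ± 0.38 for S.C. (adjusted p = 1 by edgeR). The I.P. value was 0.081 without DMSO mouse 1 and 0.68 without DMSO mouse 2.

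Nqo1 (chr8:107388225-107403206, minus strand), the quinone reductase that is a common readout of NRF2 in other tissues, was near the lower end of what these libraries measure. Counts of Nqo1 were 42 and 84 after DMSO, 41, 79, 55 and 68 after I.P. dosing, and 1 and 38 for S.C. mice 1 and 2. The I.P. and DMSO mice overlapped throughout, at 2.61 to 4.83 CPM. The single count of S.C. mouse 1 is under the floor of 3 counts. Its fitted log2 fold change was -0.088 ± 0.48 for I.P. (adjusted p = 0.992 by edgeR) and -1.45 ± 1.56 for S.C. (adjusted p = 1 by edgeR). The S.C. value was -5.74 without S.C. mouse 2 and -0.50 without S.C. mouse 1, and the I.P. value was -0.42 without DMSO mouse 1 and 0.34 without DMSO mouse 2.

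G6pdx (chrX:74409483-74429194, minus strand) encodes glucose-6-phosphate dehydrogenase, the entry enzyme of the pentose phosphate pathway and a main source of NADPH. It had 180.0 and 213.9 CPM after DMSO and 124, 223, 220.4 and 180.1 after I.P. dosing, while S.C. mice 1 and 2 had 168 and 206. All groups overlapped, and I.P. mouse 1 was lowest. G6pdx had a log2 fold change of -0.079 ± 0.28 for I.P. (adjusted p = 0.988 by edgeR) and -0.10 ± 0.31 for S.C. (adjusted p = 1 by edgeR).

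**Figure D3:**
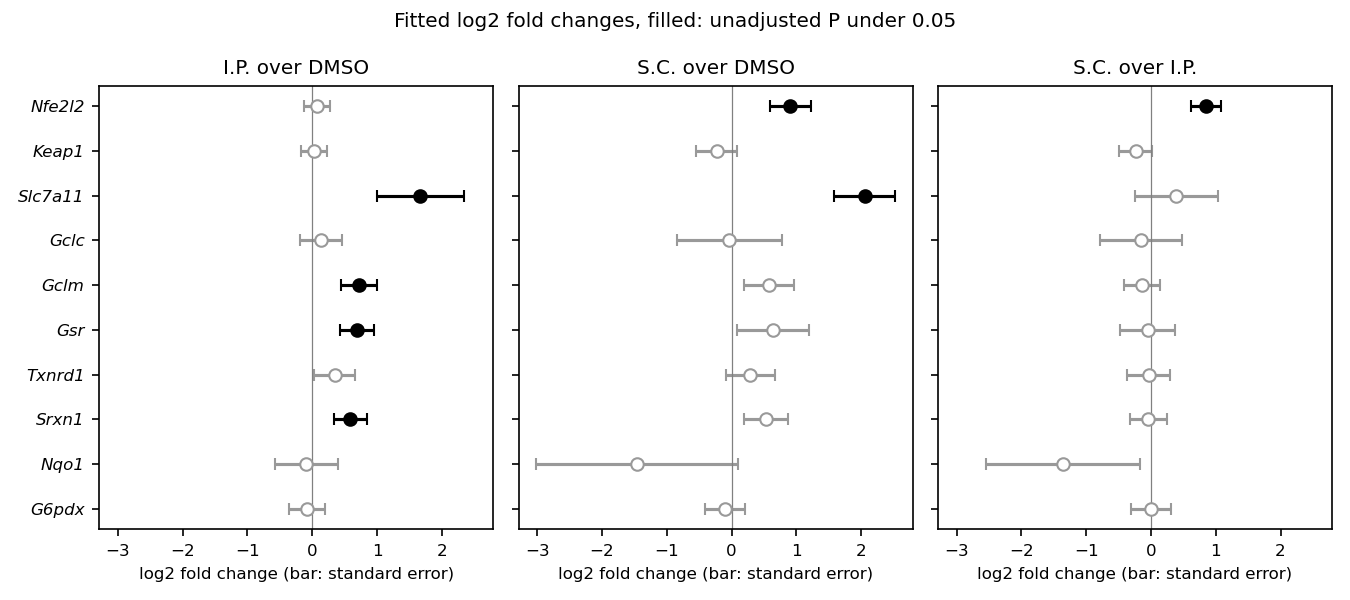
Fitted log2 fold change (x axis, bar for the standard error) of each of the 10 genes (y axis) for I.P. over DMSO, S.C. over DMSO and S.C. over I.P. mice. Filled points have an unadjusted P under 0.05 (Slc7a11, Gclm, Gsr and Srxn1 for I.P., Nfe2l2 and Slc7a11 for S.C., and Nfe2l2 between the routes), and no point has an adjusted p under 0.05.

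As a set, 8 of the 10 genes had a positive log2 fold change for I.P., with a median of 0.24 beside 0.018 for all genes tested, of which 51.8% were positive. For S.C., 6 of 10 were positive with a median of 0.41 beside 0.018, and 51.6% of all genes were positive. Without S.C. mouse 2 the S.C. median was -0.10 and without S.C. mouse 1 it was 0.65, so its sign turned on which of the 2 mice was kept. The third comparison set the routes against each other. With S.C. over I.P., 1 gene, Nfe2l2, was higher at an unadjusted P under 0.05 and 0 were lower, against 3.25% and 5.34% of 12206 genes, and 0 passed an adjusted p of 0.05 by edgeR's quasi-likelihood test, by its likelihood ratio test or by DESeq2. Nfe2l2 was higher and Keap1 lower without overlap, as were 8.05% and 10.5% of all genes. For Gclm, Gsr, Txnrd1, Srxn1 and G6pdx the routes differed by between -0.13 (Gclm) and 0.00084 (G6pdx) in log2, with standard errors of 0.28 to 0.43.

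The mean log2 CPM of the 10 genes was 5.65 and 5.95 after DMSO and 6.20, 6.28, 5.96 and 6.25 after I.P. dosing, while S.C. mice 1 and 2 had 5.48 and 6.46. The S.C. mice held the lowest and the highest mean of the series. In S.C. mouse 1 the mean includes Nqo1 at a log2 CPM of -2.38, from 1 count. Nqo1 lay between 1.45 and 2.31 in the other mice. The place of S.C. mouse 1 as lowest therefore rests on a value under the floor. Over the 8 mice, Gsr followed the mean of the other 9 genes most closely, with a Pearson r of 0.92, followed by Srxn1 at 0.75 and Gclc at 0.67, whereas Nfe2l2 had 0.0053 and Keap1 -0.31. Among 9221 genes outside the lists with at least 5 CPM, St6gal1 (r = 0.982), Trmt1 (0.964), C2 (0.961), Lhfpl2 (0.960) and Ezr (0.957) had the patterns most like the mean of the 10. These correlations describe 8 libraries that share their preparation and groups. The means they use, except the mean set against Nqo1 itself, include the Nqo1 value of S.C. mouse 1 under the floor. The effect of that value on the correlations was not tested.

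Other genes of the pathway were counted by list. Of 11 regulators of NRF2, 2 were higher in I.P. mice at an unadjusted P under 0.05, Sqstm1 and Mafk, and 0 were lower, and for S.C. 0 were higher and 0 lower, beside 2.55% of all genes higher and 0.879% lower for I.P. and 2.5% and 2.91% for S.C. Sqstm1 encodes p62, which binds KEAP1 and delivers it to autophagy, and its log2 fold change was 1.07 ± 0.30 for I.P. (adjusted p = 0.980 by edgeR) and 0.72 ± 0.32 for S.C. (adjusted p = 0.940 by edgeR). Bach1, the repressor that competes for AREs, had 0.66 ± 0.38 and 0.37 ± 0.66. Mafg, a small MAF partner, had 0.41 ± 0.26 and 0.041 ± 0.45, and Cul3, the scaffold of the ligase that KEAP1 serves, 0.14 ± 0.28 and 0.61 ± 0.32. None of these 3 had an unadjusted P under 0.05 by edgeR. The median of the list was 0.41 for I.P. and 0.34 for S.C.

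Of 23 further NRF2 targets tested, 1 was higher in I.P. mice, Osgin1, and 0 were lower, and in S.C. mice 0 were higher and 1 was lower, Marco, all at an unadjusted P under 0.05. A count of 1 in 23 is near the 2.55% of all genes that were higher for I.P. and the 2.91% that were lower for S.C. Osgin1, an oxidative stress-induced gene, had 12 and 13 CPM after DMSO, 57.1, 29.4, 24.3 and 36.5 CPM after I.P. dosing, and 12.5 and 14.7 CPM after S.C. dosing. All I.P. mice were far above the DMSO mice, and the S.C. mice were close to them. Osgin1 had a log2 fold change of 1.54 ± 0.38 for I.P. (adjusted p = 0.980 by edgeR), 0.092 ± 0.49 for S.C. and -1.43 ± 0.43 for S.C. over I.P. (adjusted p = 0.394 by edgeR). Hmox1, which encodes heme oxygenase 1, ranged from 1077 to 4317 CPM between the DMSO mice, and its log2 fold change of 0.071 ± 0.59 for I.P. and -1.19 ± 0.67 for S.C. lay within that spread. Txn1 (thioredoxin) had 0.018 ± 0.33 and 0.073 ± 0.36, and Prdx1 (a peroxiredoxin) had 0.013 ± 0.28 and 0.43 ± 0.38. The median of the list was 0.12 for I.P. and 0.30 for S.C.

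Of 15 genes of glutathione use and supply, 1 was higher in I.P. mice at an unadjusted P under 0.05, Slc3a2, and 0 were lower, beside 2.55% and 0.879% of all genes. For S.C. 0 of the list passed in either direction, beside 2.5% of all genes higher and 2.91% lower. Gss, the second enzyme of glutathione synthesis, had log2 fold changes of -0.10 ± 0.23 for I.P. and -0.36 ± 0.34 for S.C. The glutathione peroxidase genes Gpx4 and Gpx1 had 0.57 ± 0.33 and 0.48 ± 0.33 for I.P. and 0.24 ± 0.36 and 0.57 ± 0.32 for S.C. Of the genes of NADPH supply beside G6pdx, 1 of 11 was higher in I.P. mice, Taldo1, and 0 were lower, and 0 of 10 passed for S.C., beside the same shares of all genes. Taldo1, a transaldolase, had 0.52 ± 0.22 for I.P. (adjusted p = 0.980 by edgeR) and 0.38 ± 0.31 for S.C. Pgd, a later enzyme than G6pdx in the oxidative branch that yields NADPH, had 0.32 ± 0.27 and -0.042 ± 0.40. Tkt had 0.15 ± 0.21 and 0.26 ± 0.30, and Pgls had 0.29 ± 0.33 and 0.084 ± 0.51. The medians were 0.20 and 0.24 for glutathione and 0.095 and 0.018 for NADPH.

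Because Slc7a11 belongs to the ATF4 program as well, 12 ATF4 targets were counted. In I.P. mice 7 were higher at an unadjusted P under 0.05, Asns, Ddit3, Trib3, Chac1, Atf4, Sesn2 and Phgdh, and 0 were lower, with a list median of 1.29, beside 2.55% and 0.879% of all genes. In S.C. mice 2 were higher, Atf3 and Phgdh, and 0 were lower, with a median of 0.40, beside 2.5% and 2.91% of all genes. With S.C. over I.P., 0 were higher and 4 lower, Chac1, Ddit3, Sesn2 and Trib3, beside 3.25% and 5.34% of all genes. Asns, asparagine synthetase, had a log2 fold change of 2.0 ± 0.53 for I.P. and 0.81 ± 0.51 for S.C. Chac1, an enzyme that degrades glutathione, had 2.04 and 3.04 CPM after DMSO, 8.81 to 13.1 CPM after I.P. dosing, and 3.50 and 0.219 CPM after S.C. dosing, the last at the floor of 3 counts. Ddit3 had 1.19 ± 0.29 for I.P. and 0.32 ± 0.34 for S.C., and Trib3 had 1.77 ± 0.47 and -0.15 ± 0.61. The adjusted p by edgeR was at least 0.747 for each of these genes against DMSO.

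**Figure D4:**
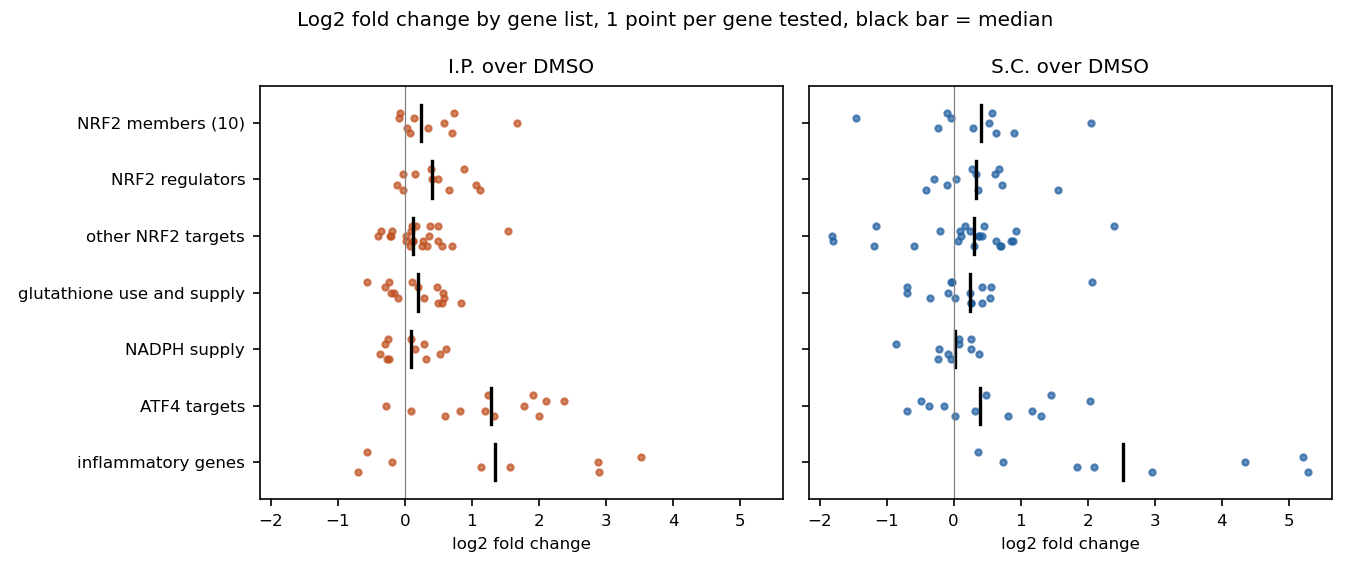
Log2 fold change (x axis) of every gene tested in the 10-gene set and in 6 other lists (y axis) for I.P. and S.C. mice over DMSO mice, with a point per gene and the median as a black bar. The ATF4 targets have a median of 1.29 for I.P. and 0.40 for S.C., while the 10 genes have 0.24 and 0.41, and the spread of points within each list is wide.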

How the data were processed

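RNA-seq of sorted TAMs from 8 mice was used. The groups (2 DMSO, 4 I.P. and 2 S.C. mice) follow the treatment in the labels, where S.C. is written IS. The authors deposited raw read counts per gene as whole numbers, without normalization, on mm10. The methods of the study name bowtie2 and RSEM, whereas the submitters' processing notes name TopHat2 and edgeR. Overlapping genes could not be told apart, as the strand setting of the counting is not given in the sources used here. Each mouse was 1 library, and p-values measure the spread between mice.

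The software was edgeR 4.0.16, DESeq2 1.42.0 and limma 3.58.1 under R 4.3.3. Genes were kept by filterByExpr (minimum count 10, minimum total 15), scaled by TMM and fitted for each pair of groups by the two-sided quasi-likelihood test, with Benjamini-Hochberg adjustment over all genes tested. The standard error is the log2 fold change over the square root of F. For log2 CPM the prior count was 2. Totals ran from 14127506 to 17577466 counts, at which Nqo1 rests on fewer counts than any other of the 10 genes. The procedure was tested on simulated data. The 10 genes and the lists were chosen with earlier results of these data known, and the ATF4 element was chosen after the data were seen. Named are the 10 genes, the first 4 of each of the 4 lists of the pathway, of the ATF4 targets and of the inflammatory genes, and the 5 genes most like their mean. Other genes of these lists with an unadjusted P under 0.05, and single genes of the marker lists, were named after their values were seen. Ly6g and Trbc2 were not analysed here. Positions are from GENCODE vM21 (GRCm38, the assembly of mm10) and promoter windows from RefSeq GRCm38.p6. Alternatives changed the filter (none, or 1 CPM in 2 mice), the scaling (RLE, or library size only) or the test (DESeq2, or the likelihood ratio test), put all 3 groups in 1 fit, added a replicate block, or left out each mouse. The replicate block kept only mice whose number occurs in both groups, which left out I.P. mice 3 and 4. A block with crossed numbers was added after the data were seen.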

Additional observations from a re-analysis of the deposited data

Results flagged for a closer look

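The 4 I.P. mice were compared with each other in 34 genes of the text, and in 5 of them 1 mouse lay far from the other 3, measured by its gap to the nearest mouse over the whole range of the group. It was I.P. mouse 1, as the highest, for all 5, and chance would set apart about 1 in 20 groups. The gap over range was 0.839 for Slc7a11, with 61.5 CPM against 11.1 to 19.2 CPM in the others. It was 0.889 for Gpx1, 0.97 for Il1b, 0.987 for Cxcl2 and 0.996 for Cxcl1. Gpx1 had 1857 CPM in I.P. mouse 1 against 933 to 1036 in the others, and Cxcl2 had 609 CPM against 16.2 to 24.0. These genes share that 1 library, so they are not independent of each other.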

How the results depend on the processing

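With 2 DMSO and 2 S.C. mice, most results rest on the spread of few libraries, and the replicate numbers did not pair the mice (correlations of same-numbered deviations between -0.144 and 0.0743). Other filters, scalings, tests or fits gave 250 log2 fold changes of the 10 genes. Of these, 5 changed sign, in genes whose reported values lay between -0.037 and 0.026. All used every mouse of their groups except the replicate block, which lacked I.P. mice 3 and 4. Keap1 for I.P. was -0.042 with library size only and -0.016 with the replicate block. For S.C. over I.P., G6pdx was -0.00099 with the filter of 1 CPM and -0.11 with library size only, and Txnrd1 was 0.077 with the replicate block. With library size only the median of all genes for S.C. moved from 0.018 to -0.135.

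Of the 10 genes, 2 had an unadjusted P under 0.05 for I.P. with all 3 groups in 1 fit. The number was 1 with the replicate block, which held only I.P. mice 1 and 2. For S.C. it was 1 with library size only and 1 with the replicate block, under which 19 of all genes passed an adjusted p of 0.05 by edgeR, against 2 with the numbers crossed. DESeq2 and the likelihood ratio test each called 1 gene for S.C. Of all genes, 0 passed by the quasi-likelihood test in each comparison, while the likelihood ratio test passed 10 for I.P., 179 for S.C. and 265 between the routes, and DESeq2 26, 107 and 234. The cause of these shifts was not tested.

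Leaving out each mouse in turn gave 0 to 4 genes at an unadjusted P under 0.05 for I.P., 0 to 5 for S.C. and 1 to 3 for S.C. over I.P. By adjusted p, leaving out an I.P. mouse gave 0 genes for I.P. and 0 for S.C. over I.P. Leaving out a DMSO or an S.C. mouse leaves a group of 1, whose spread is taken from the other group. All such fits for S.C. are of this kind, and their counts are not a result about the 10 genes. The median of the 10 genes ranged from 0.15 to 0.51 for I.P., -0.10 to 0.65 for S.C. and -0.24 to 0.21 between the routes. For I.P., the sign also changed in Keap1 (-0.0074 to 0.053), Gclc (-0.078 to 0.27), Nqo1 (-0.42 to 0.34) and G6pdx (-0.20 to 0.077). For S.C. it changed in Gclc (-1.95 to 0.75), Gsr (-0.38 to 1.21), Txnrd1 (-0.071 to 0.62) and G6pdx (-0.29 to 0.035). Between the routes it changed in Gclc (-2.03 to 0.64), Gclm (-0.39 to 0.084), Gsr (-1.03 to 0.53), Txnrd1 (-0.37 to 0.22), Srxn1 (-0.32 to 0.19) and G6pdx (-0.16 to 0.14). Nfe2l2 and Slc7a11 kept a positive value in every comparison and Gclm, Gsr, Srxn1 and Txnrd1 did so for I.P.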
